A study of Mus musculus with 6 samples.

Results

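Small nucleolar RNA (snoRNA) genes were compared between mouse embryonic stem cells treated with tamoxifen to delete Dicer and untreated cells of the same kind. The snoRNA genes were taken by name: a probe set was included when its only gene symbol in the array annotation was Snora or Snord followed by a number. This gave 51 of the 19938 genes measured, 20 Snora genes (box H/ACA) and 31 Snord genes (box C/D). Another 41 probe sets list a snoRNA symbol beside other symbols and were left out by this choice.

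The tested cells were Dicer Fx/Fx embryonic stem cells, whose Dicer alleles are conditional (floxed), given tamoxifen for 3 days and collected 2 days later, on day 5. Their controls were Dicer Fx/Fx cells without the deletion, for which no collection day was given. Each group had 3 arrays, numbered 1 to 3 in the labels. The recombinase that tamoxifen acts on, the number of clones behind the line and the culture origin of the replicates are not stated, so p-values reflect the spread among these arrays alone and that spread could be technical. No arrays of tamoxifen-treated wild-type cells were used here, so an effect of tamoxifen itself and an effect of Dicer loss cannot be told apart. In such bulk samples fewer cells of a type and less RNA per cell cannot be told apart either. All values are log2 signals after robust multi-array averaging (RMA).

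Dicer1, the targeted gene, measured 9.53, 9.48 and 9.69 in tamoxifen-treated cells, against 11.43, 11.36 and 11.48 in untreated cells. It fell by 1.85 ± 0.07 on the log2 scale (limma, adjusted p = 3.61e-05), and the groups lay far apart. The cells carried stem cell markers under both conditions, and 0 of the 12 markers examined were called (limma). At an unadjusted p below 0.05 (limma), however, 5 of the 12 (41.7%) were lower, against 13.1% of all genes. In the fit with the replicate block 4 were called lower, among them Lin28a and Utf1, against 9.54% of all genes. Of 9 fibroblast (feeder cell) markers 0 were called; Lox was higher and Thy1 lower without adjustment (p below 0.05) and with the block. Across genes, the correlation of 2 arrays was 0.996 to 0.998 within a group and 0.993 to 0.996 between groups.

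A snoRNA is a short, structured nuclear RNA that pairs with precursor ribosomal RNA. Box C/D RNAs direct the addition of a methyl group to the ribose by fibrillarin, and box H/ACA RNAs direct the conversion of uridine to pseudouridine by dyskerin. A few of either class are needed instead for cutting the rRNA precursor. In mammals most are made from introns: the host gene is transcribed, the intron is spliced out and debranched, and exonucleases trim it back to the ends protected by the snoRNA's own proteins. Dicer, which cuts microRNA hairpins, is not known to be needed for this route. Host genes often belong to the translation machinery or are noncoding RNAs of the Snhg kind, and many of them start transcription within a run of pyrimidines, the 5′ terminal oligopyrimidine tract.

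Every one of the 51 genes was found in the RefSeq gene table of assembly GRCm38.p6. The listed lengths were 61 to 205 bases for Snora and 45 to 148 bases for Snord genes. All but 1 lie inside the span of a protein-coding or long noncoding gene. The exception was Snord118, the U8 RNA, which is known to have its own promoter. Of the 43 containing genes, the start sites are printed for 4 noncoding hosts chosen by hand, Snhg3, Snhg12, 2410006H16Rik and Gas5. Those transcripts are known mainly as carriers of snoRNAs and hold 7 of the genes described here. Other noncoding hosts, among them Snhg1 and Snhg4, are not printed. Each line gives 20 bases before and 10 from the RefSeq start, 5′ to 3′ on the gene's strand. Capitals mark CTTTC, a short pyrimidine run. The sequences are from RefSeq, build GRCm38.p6.
Snhg3, chr4:132353677-132353706, minus strand, host of Snora73a and Snora73b: aggcatagtcgaccacgcctgacttccggg
Snhg12, chr4:132308658-132308687, plus strand, host of Snora16a and Snora44: gtgcaggccgttctcagtcCTTTCtcgctt
2410006H16Rik, chr11:62602857-62602886, plus strand, host of Snord49a and Snord49b: ggcgctcacgcgccgtCTTTCtctgcggcc
Gas5, chr1:161034581-161034610, plus strand, host of Snord47, first listed start: cgccaagggggcgggcccgcgagctcgaca
Gas5, chr1:161035146-161035175, plus strand, further listed start: gactcagccgccatctcagcCTTTCggagc
The letters CTTTC or CTTTT, which can overlap in a longer run, were searched within 25 bases either side of each listed start. They occurred on the gene's own strand at 10 of the 31 containing genes in the table (32.3%), against 13.2% of all 27025 genes. On the opposite strand they occurred at 2 of the 31 (6.45%), against 12.3%. These shares are a description of the letters, and transcription start use was not measured.

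Most snoRNA genes showed small differences after tamoxifen. One Snora gene, Snora31, was higher and 1 Snord gene, Snord15a, was lower at an adjusted p under 0.05. Over all 19938 genes, 7.78% were called, 3.79% as higher and 3.99% as lower. The median log2 change was 0.01 for the 20 Snora genes, -0.02 for the 31 Snord genes and 0.01 for all genes. Changes ranged from -0.17 to 0.41 in Snora and from -0.27 to 0.21 in Snord genes. A change under 0.2 in either direction was seen for 40 of the 51 (78.4%), against 78.7% of all genes. The 95% interval of the change lay within ±0.5 for 45 of the 51 (88.2%), against 88.9% of all genes, so a change of more than 0.5 lay outside the interval for those 45.

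**Figure D1:**
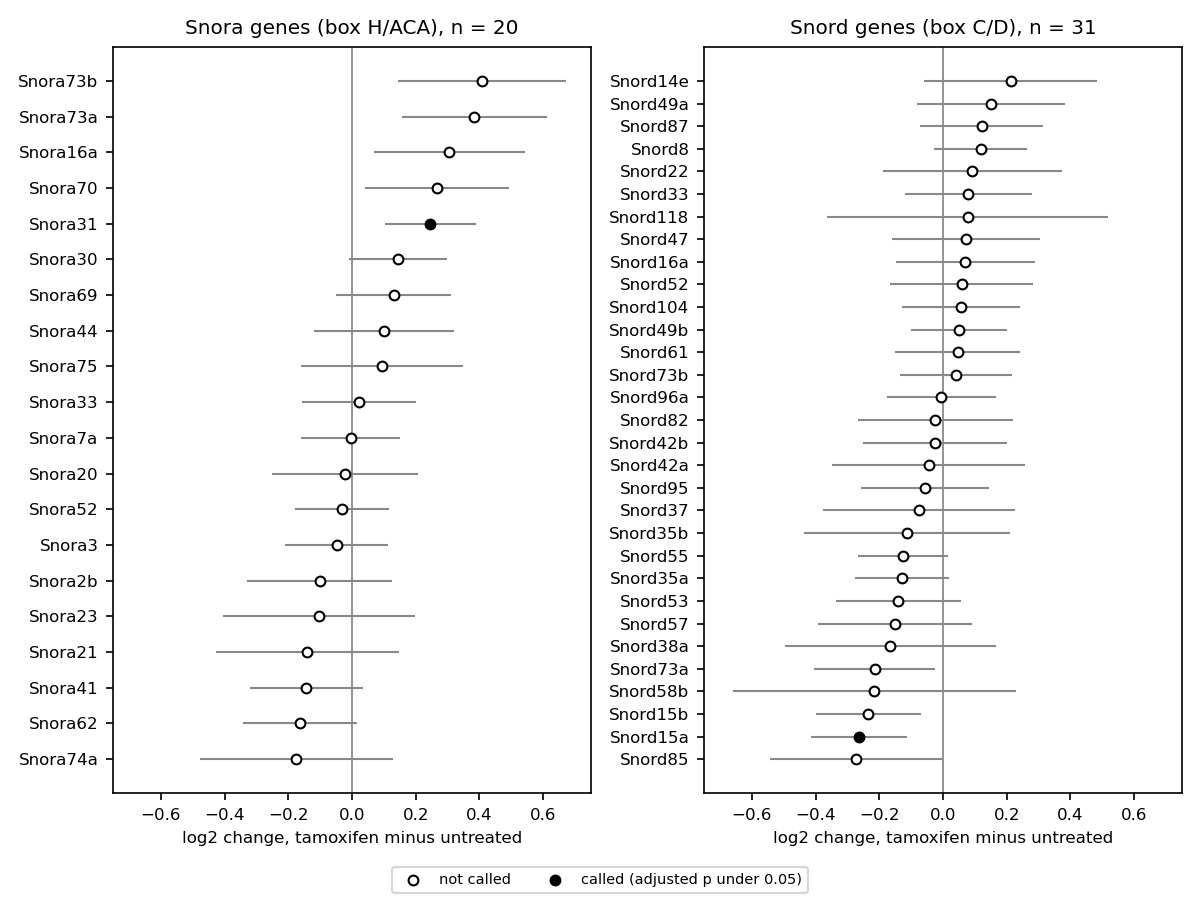
Log2 change (tamoxifen minus untreated, horizontal axis) of each Snora gene, left, and each Snord gene, right, with its 95% interval. Filled points mark the genes called at an adjusted p under 0.05, Snora31 and Snord15a; the remaining intervals lie mostly across 0, and the changes run from -0.27 for Snord85 to 0.41 for Snora73b.

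Without adjustment for many tests, the classes differed in the sign of the genes past the threshold. Of the Snora genes, 5 were higher and 0 lower with p below 0.05 before adjustment. Of the Snord genes, 0 were higher and 4 lower. The background was 11.5% of all genes higher and 13.1% lower, so 9 of 51 (17.6%) compares with 24.5%. These shares do not have equal precision, as the median SE was 0.096 for the snoRNA genes and 0.075 for all genes. The median absolute change was 0.114 for the snoRNA genes and 0.097 for all genes. The same-numbered arrays of both groups deviated together, and with the replicate number as a block 4 Snora genes were called higher and 0 lower, while 0 Snord genes were called higher and 2 lower. That fit called 7.87% of all genes higher and 9.54% lower. Whether the classes differ in their response was not tested.

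Among the Snora genes the 2 largest changes belonged to the U17 RNAs, Snora73a and Snora73b, neighbours within the noncoding host Snhg3. U17, also called E1, is an H/ACA RNA needed to cut the precursor of the small-subunit rRNA and not known to guide pseudouridylation. Snora73b measured 11.69, 12.18 and 12.04 in tamoxifen-treated cells, against 11.52, 11.53 and 11.63 in untreated cells. Snora73a measured 11.86, 12.27 and 12.05 in tamoxifen-treated cells, against 11.62, 11.67 and 11.75 in untreated cells. All tamoxifen values of both genes lay above all untreated values, with tamoxifen replicate 1 the lowest and replicate 2 the highest of the treated arrays. The log2 changes were 0.41 ± 0.12 for Snora73b and 0.38 ± 0.10 for Snora73a. Neither passed the test without the block (limma, adjusted p = 0.0668 and 0.0514), and both passed with the replicate block (adjusted p = 0.0175 and 0.0132). The RNAs are close in sequence, so signal may be shared between their probe sets, which was not tested. Snhg3 itself was not measured under its own symbol here.

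Snora31 lies within Tpt1, which encodes the translationally controlled tumour protein. Its signal was 10.07, 10.09 and 9.99 in tamoxifen-treated cells and 9.82, 9.74 and 9.84 in untreated cells. The groups did not overlap, and the treated values were tight. It rose by 0.25 ± 0.06 (1.19-fold; limma, adjusted p = 0.0484, and 0.0308 with the block). The call was lost when any single array was left out, with adjusted p-values from 0.0718 to 0.172. It was also lost with array medians subtracted (0.0511), with a trended robust variance prior (0.0514) and over all probe sets (0.108).

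Snora16a and Snora44, a pair of H/ACA guides within the noncoding host Snhg12, did not give the same picture. Snora16a measured 11.54, 11.94 and 11.76 in tamoxifen-treated cells, against 11.46, 11.33 and 11.54 in untreated cells. The lowest treated and the highest untreated array nearly touched, and the change of 0.31 ± 0.10 did not pass (adjusted p = 0.113, and 0.0632 with the block). Snora44 measured 10.61, 10.32 and 10.25 in tamoxifen-treated cells, against 10.36, 10.23 and 10.30 in untreated cells, so its groups overlapped, with a change of 0.10 ± 0.10.

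Snora70, the U70 RNA within the ribosomal protein gene Rpl10, had 9.15, 9.53 and 9.36 in tamoxifen-treated cells and 9.02, 9.18 and 9.04 in untreated cells. Untreated replicate 2 lay just above tamoxifen replicate 1, but each treated array was above the untreated array of its own number. The change of 0.27 ± 0.10 had an adjusted p of 0.137 without the block and 0.0264 with it. Snora73a, Snora73b, Snora16a and Snora70 were all called when tamoxifen replicate 1 was left out, and none of the 4 was called when any other array was left out.

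**Figure D2:**
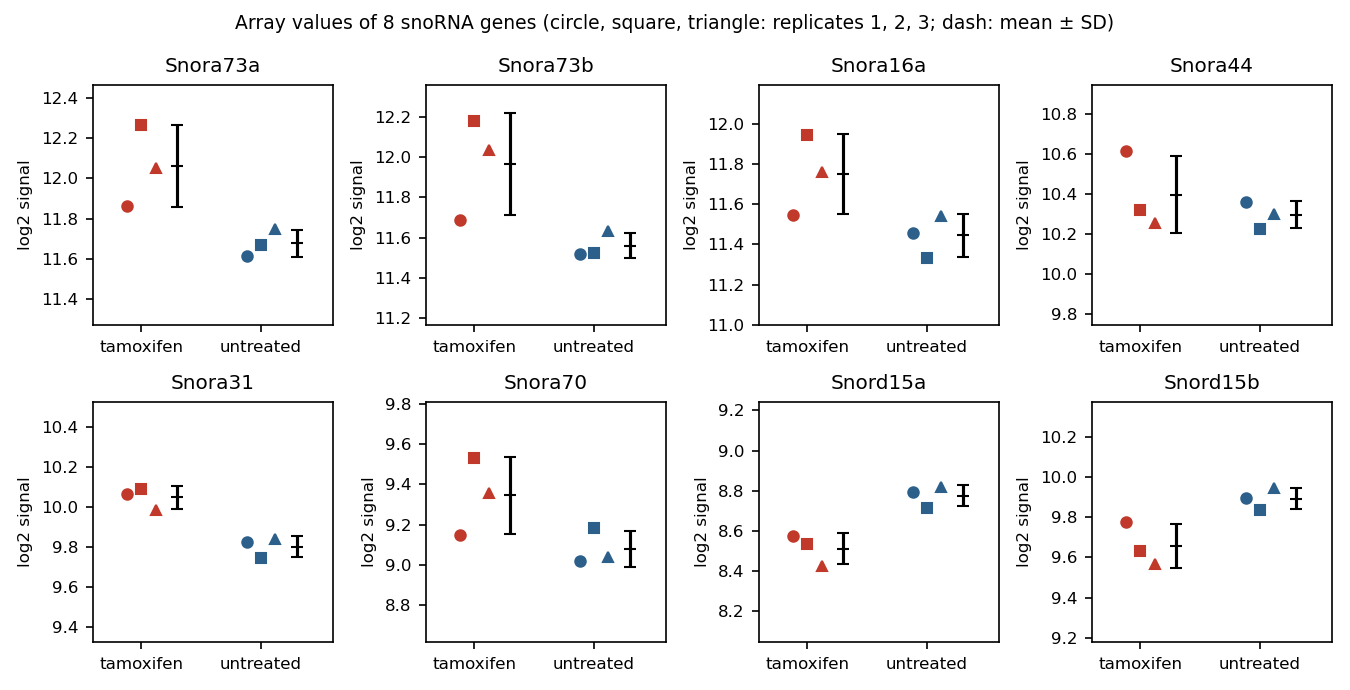
Log2 signal on each array for 8 snoRNA genes, tamoxifen left of untreated; circles, squares and triangles are replicates 1, 2 and 3, and bars are mean ± SD (n = 3). Each panel spans the same 1.2 log2 units: the treated arrays lie above the untreated ones in Snora73a, Snora73b, Snora16a and Snora31, below them in Snord15a and Snord15b, and overlap them in Snora44 and Snora70.

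Other Snora genes stood apart without passing the test. Snora30 and Snora69 were higher on every treated array than on any untreated array, with changes of 0.14 ± 0.07 and 0.13 ± 0.08. Snora62, the E2 RNA within Rpsa, and Snora41, within Eef1b2, were lower on every treated array, with changes of -0.16 ± 0.08 and -0.14 ± 0.08. In all, 6 Snora genes lay fully above and 2 fully below, against 14.5% and 14.8% of all genes. For 3 arrays against 3, the smallest two-sided p of an exact permutation test is 0.1. The most negative change of the class, Snora74a at -0.17 ± 0.13, came with overlapping groups. The brightest probe set of the class was that of Snora52, at 13.43, 13.34 and 13.27 in tamoxifen-treated cells against 13.40, 13.39 and 13.34 in untreated cells, a change of -0.03 ± 0.06. Snora7a, at -0.004 ± 0.07, changed sign under renewed quantile normalisation (0.037) and under cyclic loess (0.032).

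Among the Snord genes, the U15 RNAs Snord15a and Snord15b were the clearest. Both lie within Rps3, a ribosomal protein gene, and U15 guides methylation of the large-subunit rRNA. Snord15a measured 8.57, 8.54 and 8.42 in tamoxifen-treated cells, against 8.79, 8.71 and 8.82 in untreated cells. Snord15b measured 9.78, 9.63 and 9.56 in tamoxifen-treated cells, against 9.90, 9.84 and 9.95 in untreated cells. In both genes every treated array lay below every untreated array. Snord15a fell by 0.26 ± 0.07 (limma, adjusted p = 0.0470, and 0.0268 with the block). Snord15b had a change of -0.23 ± 0.07 and passed only with the block (adjusted p = 0.0476, against 0.0875 without). Snord15a was not called in any of the 6 fits without 1 array (adjusted p from 0.0529 to 0.156), and Snord15b was called in 1 of them, without tamoxifen replicate 1. Under renewed quantile normalisation Snord15a had an adjusted p of 0.0569, and under cyclic loess 0.0616.

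The other Snord genes with an unadjusted p under 0.05 were Snord85 and Snord73a. Snord85 had 7.46, 7.37 and 7.09 in tamoxifen-treated cells and 7.39, 7.58 and 7.77 in untreated cells. Its change of -0.27 ± 0.12 (adjusted p = 0.198) came mostly from number 3, where treated minus untreated was -0.68, against 0.07 for number 1. Snord73a, within Rps3a1, had 6.91, 6.82 and 6.97 in tamoxifen-treated cells and 6.96, 7.15 and 7.24 in untreated cells, a change of -0.21 ± 0.08 (adjusted p = 0.157). Its neighbour in the same host, Snord73b, had a change of 0.04 ± 0.08 with overlapping groups. Of the 31 Snord genes 0 lay fully above and 4 fully below: Snord15a, Snord15b, Snord35a and Snord55. These 4 of 31 (12.9%) lie near the 14.8% of all genes fully below. Snord35a, within Rpl13a, had a change of -0.13 ± 0.07, and Snord55 one of -0.13 ± 0.06.

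Some Snord genes encode RNAs that are needed for cutting the rRNA precursor. Snord118 (U8), needed for the large-subunit rRNA, measured 7.34, 6.90 and 6.49 in tamoxifen-treated cells, against 7.02, 6.86 and 6.61 in untreated cells. Its arrays differed more within the groups than between them, and the change was 0.08 ± 0.19. Snord22 (U22), needed for the small-subunit rRNA and carried by Snhg1, had 9.11, 9.21 and 9.13 in tamoxifen-treated cells and 8.74, 9.16 and 9.28 in untreated cells. Its treated values all lay within the untreated range, with a change of 0.09 ± 0.12. Snord14e, a copy of U14, which also serves the small-subunit rRNA, lies within the chaperone gene Hspa8. It measured 10.78, 11.08 and 11.01 in tamoxifen-treated cells and 10.51, 10.76 and 10.96 in untreated cells. The change of 0.21 ± 0.12, the most positive of the class, was not called (adjusted p = 0.318), but each treated array lay above the untreated array of its number.

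The remaining Snord genes had changes between -0.22 (Snord58b, with an SE of 0.20, the widest here) and 0.15 (Snord49a). Snord49b and Snord57, the brightest of the class, averaged 12.54 ± 0.05 and 12.49 ± 0.14 in tamoxifen-treated cells and 12.48 ± 0.08 and 12.64 ± 0.18 in untreated cells (SD, n = 3 each). Neither differed beyond the spread between replicates. Snord61, the dimmest, averaged 5.21 ± 0.16 in tamoxifen-treated cells and 5.17 ± 0.05 in untreated cells, and RMA gives no call of whether such a probe set is above background.

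For 5 genes there were 2 probe sets each, which gave nearly the same changes. The probe sets of Snora30 and of Snord118 held identical values. Those of Snora21 gave -0.14 and -0.17, those of Snora3 gave -0.05 and -0.06, and those of Snord58b gave -0.22 and -0.24.

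The containing genes were compared with their snoRNAs, since intron-encoded snoRNAs are made from the host's transcript. Of the 43 containing genes, 25 had a probe set annotated to them alone, and the brightest was used for each. By these, 0 were called (limma), with 2 higher and 0 lower before adjustment (p below 0.05). With the block 2 were called higher and 0 lower. The changes of these 25 genes ran from -0.11 to 0.26, with a median of 0.02. The highest were Srcap (0.26 ± 0.10, adjusted p = 0.153, and 0.0281 with the block), a chromatin remodeller that contains Snora30, and Rbmx (0.23 ± 0.12, adjusted p = 0.297, and 0.0331 with the block), an RNA-binding protein gene that contains Snord61. Next came Ipo7 (0.19 ± 0.07, adjusted p = 0.133), a nuclear import receptor that contains Snora23. Snora23 itself had a change of -0.10 ± 0.13. Tpt1, around Snora31, had a change of 0.03 ± 0.06, and Rps3, around Snord15a and Snord15b, one of 0.02 ± 0.06.

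Taking the difference of snoRNA and host log2 signal on each array, 7 of the 29 measured pairs did not overlap between the groups, 2 with the treated arrays above and 5 below. By their own signal, 14.5% of all genes lay fully above and 14.8% fully below. No such share was computed for differences between genes, so the pairs are given as values only. For Snora31 and Tpt1 the difference was 0.22 higher in treated cells. For Snord15a and Snord15b against Rps3 it was lower, by -0.28 and -0.25. Snord73a against Rps3a1 gave -0.29, Snora62 against Rpsa -0.21 and Snora41 against Eef1b2 -0.18. With probe sets averaged per gene, the change of Rpsa was 0.003 instead of 0.05, and that of Rps3a1 stayed at 0.07. The last pair was Snord87 against Mcmdc2, at 0.23. Mcmdc2 was dim, averaging 5.97 in tamoxifen-treated and 6.08 in untreated cells, and Snord87 also lies within Snhg6, which was not measured here. An exact permutation test gives p = 0.1 for each of these 7 pairs, the smallest that 3 arrays against 3 allow. Across the 29 pairs, which share arrays and in part hosts, the changes of snoRNA and host correlated at a Pearson r of 0.17 and a Spearman rho of 0.10. Ribosomal protein genes have processed copies in the genome, and a probe set annotated to the gene may also read these, which was not tested. For no containing gene was the position of its probe set compared with the gene's span, so the value may come from another locus. For 18 containing genes, among them Snhg3, Snhg12, Snhg1 and Rpl13a, no comparison could be made.

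**Figure D3:**
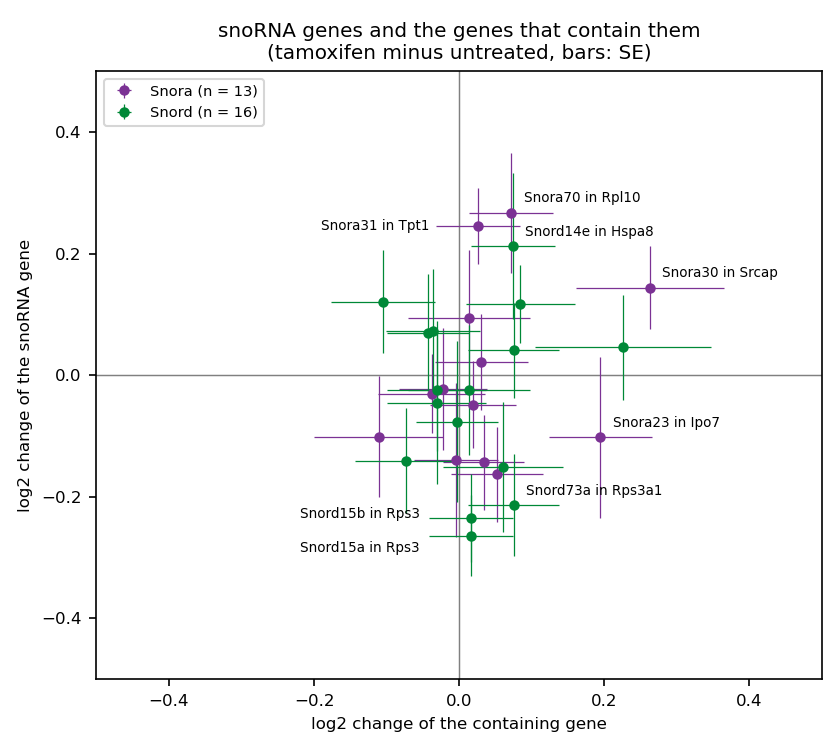
Log2 change of each snoRNA gene (vertical axis) against that of the gene whose span contains it (horizontal axis), tamoxifen minus untreated, with SE bars; 13 Snora and 16 Snord pairs. The containing genes lie between -0.11 and 0.26. Snora31 in Tpt1 and the Snord15 pair in Rps3 lie away from 0 on the vertical axis alone. Snora70 in Rpl10, Snord73a in Rps3a1 and Snord14e in Hspa8 do so mainly on that axis.

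Of the containing genes, 10 hold 2 of the snoRNA genes each, so that neighbours can be set side by side. In Snhg3 the changes were 0.38 and 0.41, and in Rps3 -0.26 and -0.23. In Rpl23a, the changes of Snord42a and Snord42b were -0.05 and -0.03, and in Rack1 those of Snord95 and Snord96a were -0.06 and -0.01. Neighbours lay further apart in Rps3a1 (-0.21 and 0.04), in Rpl13a (Snord35a at -0.13 and Snord33 at 0.08) and in Snhg12 (0.31 and 0.10). Within Ncl, which encodes nucleolin, the H/ACA gene Snora75 had 0.09 and the C/D gene Snord82 had -0.02, and Snord82 changed sign under renewed quantile normalisation (0.012) and cyclic loess (0.0090).

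The snoRNA values of same-numbered arrays deviated together. Over the 51 snoRNA genes, the deviations from the group means correlated between the arrays numbered 1, 2 and 3 at 0.477, 0.514 and 0.499, against 0.356, 0.345 and 0.389 over all genes. Genes of one array share its RNA and its normalisation, so these values are a description. What the number stands for is not stated in the labels.

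The arrays of one group also differed among themselves. As the median deviation from each gene's mean, Snord genes lay at -0.0004, 0.01 and -0.04 on tamoxifen arrays 1, 2 and 3, against -0.11, 0.03 and 0.14 on untreated arrays 1, 2 and 3. Thus the untreated group held both the lowest and the highest array. Snora genes lay at 0.04, 0.01 and -0.01 on the tamoxifen arrays and at -0.07, -0.08 and 0.03 on the untreated arrays. By pairs of the same number, the median difference of Snord genes was 0.17, -0.01 and -0.16, and that of Snora genes 0.10, 0.05 and -0.12, so the sign of the typical snoRNA change differed between the numbers. The median over all genes stayed between -0.02 and 0.01 on every array.

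**Figure D4:**
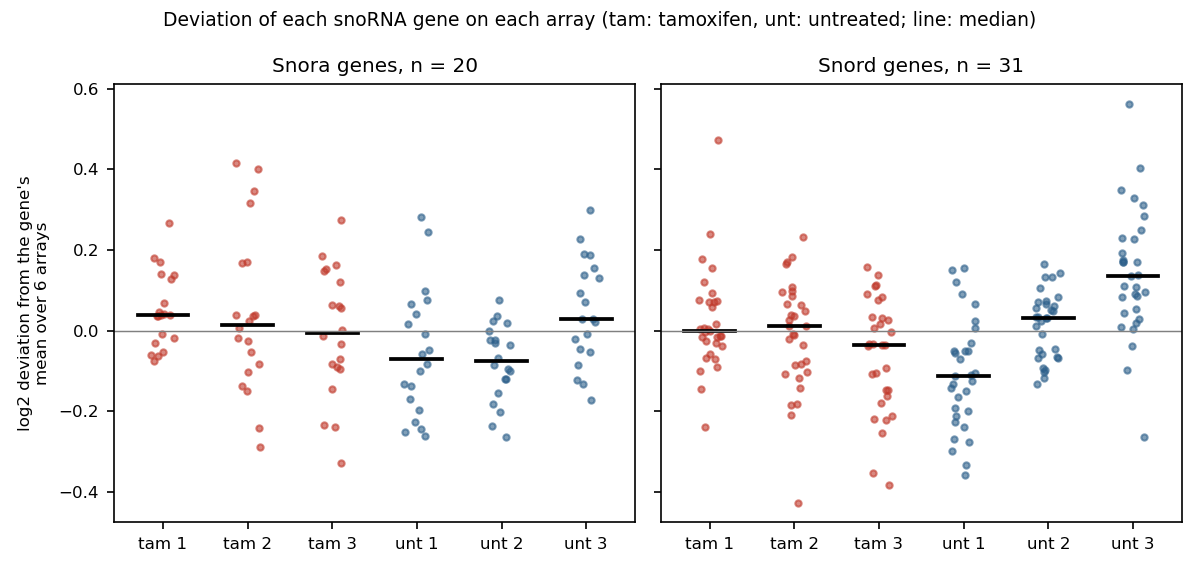
Deviation of each snoRNA gene from its own mean over the 6 arrays (vertical axis, log2), by array, with the median as a line; Snora genes left, Snord genes right. Untreated arrays 1 and 3 hold the lowest (-0.11) and highest (0.14) Snord medians, and the tamoxifen arrays lie between them.

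Proteins that bind, build and trim snoRNAs were examined from lists of described genes. Of the box C/D core proteins, Fbl (fibrillarin, the methyltransferase) was lower, at 11.62, 11.50 and 11.48 in tamoxifen-treated cells against 11.72, 11.87 and 11.86 in untreated cells, a fall of 0.29 ± 0.07 (adjusted p = 0.0447). The other core proteins, Snu13, Nop56 and Nop58, were not called, with changes of -0.16 ± 0.06, 0.06 ± 0.08 and 0.11 ± 0.10. Of the box H/ACA core proteins, Nop10 was lower, at 11.62, 11.50 and 11.46 in tamoxifen-treated cells against 11.86, 11.81 and 11.80 in untreated cells, a fall of 0.30 ± 0.07 (adjusted p = 0.0297). Nhp2 had a change of -0.28 ± 0.08 and passed only with the block (adjusted p = 0.0284, against 0.0690 without). Dkc1 (dyskerin, the pseudouridine synthase) and Gar1 both had changes of -0.05, within their SE of 0.06 and 0.07.

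Of 17 measured assembly and trafficking factors, 0 were higher and 4 lower, with a median change of -0.13. For this and the following lists, the shares over all genes were 3.79% higher and 3.99% lower. The 4 were Znhit3 (-0.40 ± 0.07, adjusted p = 0.0128), the AAA+ ATPase Ruvbl2 (-0.29 ± 0.06), its partner Rpap3 (-0.30 ± 0.06) and Rrp9 (-0.27 ± 0.06), a U3 snoRNP protein. Ruvbl1, the partner of Ruvbl2, had a change of -0.03 ± 0.07. Among 20 genes of the nuclear exosome and of snoRNA end trimming, 0 were higher and 4 lower, with a median of -0.03. These were Exosc2 (-0.35 ± 0.07, adjusted p = 0.0187), Exosc3 (-0.29 ± 0.07), the helicase Mtrex (-0.31 ± 0.08) and the cofactor Mphosph6 (-0.31 ± 0.08). The catalytic exosome subunits Dis3 and Exosc10 and the debranching enzyme Dbr1 had changes of 0.02 ± 0.08, -0.01 ± 0.07 and 0.002 ± 0.10. With probe sets averaged per gene instead of the brightest kept, Exosc3 lost its call with a change of -0.04 (adjusted p = 0.787), and Mphosph6 (-0.39, adjusted p = 0.112) and Fbl (-0.30, adjusted p = 0.0601) lost theirs at changes of similar or larger size. Over all probe sets, each call of the core, assembly and exosome lists was lost, with adjusted p-values from 0.0548 (Znhit3) to 0.120 (Mphosph6).

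Genes of rRNA synthesis and ribosome assembly gave 0 of 39 higher, 3 lower and a median of -0.11. Nip7 fell by 0.60 ± 0.09 (adjusted p = 0.00754), Utp18 by 0.48 ± 0.09 and Utp14a by 0.37 ± 0.09. Over all probe sets, Utp18 (adjusted p = 0.0814) and Utp14a (adjusted p = 0.131) lost their calls. Utp14a also lost its call over all probe sets with a listed gene (0.0522) and with array medians subtracted (0.0515). The same held under renewed quantile normalisation (0.0677) and under cyclic loess (0.0700). Nip7 was called in all 6 fits without 1 array; each other called gene of the protein lists above lost its call in at least 3 of them. Another gene, Myc, had the most negative change of the list (-0.78 ± 0.32, adjusted p = 0.174, and 0.00224 with the block). With the block 0 genes of the list were called higher and 6 lower, against 7.87% and 9.54% of all genes. Of 61 ribosomal protein genes, 0 were called (limma), with 1 higher and 5 lower before adjustment (p below 0.05) and 0 higher and 4 lower with the block.

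Among 39 described snoRNA host genes 0 were called (limma), while 1 was higher and 2 were lower both before adjustment (p below 0.05) and with the block. Of these, Snhg15 had a change of 0.30 ± 0.08 (adjusted p = 0.0575, and 0.0234 with the block) and Rcc1 one of -0.20 ± 0.07 (adjusted p = 0.116, and 0.0465 with the block). Gas5, the host of Snord47, had a change of -0.04 ± 0.06.

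**Figure D5:**
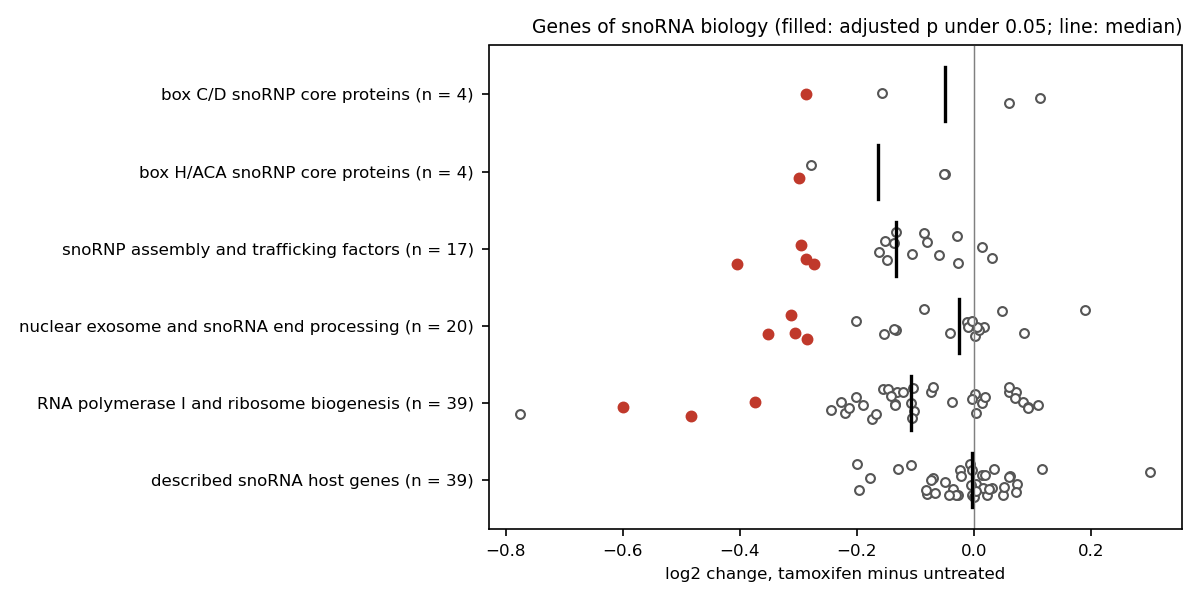
Log2 change (tamoxifen minus untreated) of each measured gene in 6 lists of snoRNA biology, with the list median as a line; filled points have an adjusted p under 0.05. All filled points lie left of 0, between -0.60 (Nip7) and -0.27 (Rrp9), and the described host genes hold no filled point.

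The snoRNA genes can be set beside other short RNA genes. Of 15 small Cajal body, spliceosomal, Y, vault and related RNA genes, 0 were called (limma), 1 (Rnu7) had an unadjusted p below 0.05, 1 (Scarna17) was called lower with the block, and changes ran from -0.32 to 0.34 around a median of -0.04. Of 300 microRNA gene probe sets, 9 were higher, a share below the 3.79% of all genes, and 0 were lower, with a median of 0.05. At an unadjusted p below 0.05 (limma), 43 were higher and 3 lower, against 11.5% and 13.1% of all genes. With the block 21 were called higher and 0 lower, against 7.87% and 9.54% of all genes. In the microRNA pathway, 13 protein genes were measured: Ago1 (0.93 ± 0.08), Tnrc6a (0.64 ± 0.06) and Tnrc6b (0.51 ± 0.06) were higher, and Dicer1 alone was lower without the block. The fit with the block also called Ago2 higher (adjusted p = 0.0211) and Prkra lower (adjusted p = 0.0282). Marker genes of other lineages gave 0 of 8 called for endoderm, 0 of 5 for neural cells and 0 of 6 for trophoblast (limma). Before adjustment (p below 0.05) 1, 2 and 2 of them were higher and 0 lower; with the block 1 (Pdgfra), 2 (Sox1 and Tubb3) and 1 (Tfap2c) were called higher, and 1 trophoblast marker lower. Of 5 mesoderm markers 1 was called, Kdr, at 0.26 ± 0.07 (adjusted p = 0.0468). Its call was lost in all 6 fits without 1 array, under renewed quantile normalisation (0.0631), under cyclic loess (0.0602) and over all probe sets (0.110). Eomes, another mesoderm marker, had a change of -0.57 ± 0.23 (adjusted p = 0.174, and 0.00745 with the block).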

How the data were processed

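RNA of 6 samples (3 tamoxifen, 3 untreated) was measured on Affymetrix arrays. The deposited values are log2 signals made by the authors by RMA, with Expression Console 1.2 named in the submitters' processing notes. A log2 scale fits their range, 3.18 to 14.6, with array medians of 7.19 to 7.26. RMA equalises the arrays' distributions, so a shift of most transcripts together would be invisible. The table held 0 columns from samples outside the series. Total RNA came from a column kit, per the labels' protocols; such kits recover short RNAs poorly, and whether the snoRNA probe sets read mature snoRNA, intron or host precursor cannot be told apart.

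Of 35556 probe sets, 21789 had 1 gene symbol, 1621 several and 12146 no listed gene. The probe set with the highest mean was kept for each of 19938 genes. The comparison used limma 3.58.1 (R 4.3.3; lmFit and eBayes, two-sided) on every gene, dim ones included, with Benjamini-Hochberg adjustment over all genes; a gene was called at an adjusted p under 0.05. Errors are limma's SE for changes and SD for group means. Members and gene lists were chosen with earlier results of these data known. Containing genes were found by span in RefSeq; the table gives no strand, so strand was not compared as planned, and the array annotation's build is not given in the sources used here.

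Deviations from the group means correlated at 0.356, 0.345 and 0.389 between same-numbered arrays. Each tamoxifen array correlated best with the untreated array of its own number, and the reverse was not computed. The numbers were therefore treated as pairing the arrays, and a second fit held the replicate number as a block. Named genes were Dicer1, called snoRNA genes, the 5 of smallest p per class and direction, the 5 brightest and 3 dimmest of each class, genes of the Snord115 and Snord116 families (none among the members), neighbours and hosts, and the called members of each list up to 4 per direction or the 2 of smallest p; further genes were named after their values were seen. On simulated arrays of 19938 genes with 200 changed, this comparison called 11.9% of changes of 0.25, 92.5% of 0.5 and 100% of 1, with 9 false calls. The simulated noise was independent between arrays, unlike the data, and fewer genes were changed than the 1552 called in the data. The changed genes were drawn from all genes. The snoRNA genes had a median SE of 0.096, against 0.075 for all genes, so these shares need not hold for them. The number of arrays limits the precision. Alternatives are given in the closing section.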

Additional observations from a re-analysis of the deposited data

How the results depend on the processing

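Dicer1 stayed lower and called under every alternative run. Without 1 array the Snora median ran from -0.016 to 0.080 and the Snord median from -0.102 to 0.054, so both took either sign. The counts of called snoRNA genes varied. Against 1 Snora genes called, 1 Snord genes called and 1552 genes in all (per-gene change, tamoxifen minus untreated), the replicate block called 4, 2 and 3472. Array weights called 4 Snora genes and 2511 in all. Leaving out the dimmest 40% of genes called 2 Snora genes; subtracting array medians called 0. Renewed quantile normalisation and cyclic loess each called 2 Snora genes (Snora31 and Snora73a) and 0 Snord genes; a trended robust variance prior called Snora73a and Snora73b, a total of 2, and 0 Snord genes. Renewed quantile normalisation and cyclic loess also ended the calls of Fbl, Mtrex, Mphosph6, Utp14a and Kdr. Cyclic loess ended that of Rrp9 and the robust prior that of Exosc3. With all probe sets in the fit, 0, 0 and 336 were called; at a threshold of 0.01, 0, 0 and 276; at 0.10, 3, 2 and 2793. Leaving out 1 array at a time, calls ranged from 0 to 4 for Snora, from 0 to 1 for Snord and from 355 to 1580 in all; 0 snoRNA genes were called in all 6 of these fits. The 4 Snora calls came from leaving out tamoxifen replicate 1, and the other 5 fits gave 0. The lowest counts in all were 355 (tamoxifen replicate 2 left out), 516 (untreated replicate 2), 539 (tamoxifen replicate 3) and 908 (untreated replicate 3). The cause was not tested.

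Some signs changed, also for values as large as 0.10 (Snora44). Under renewed quantile normalisation Snora7a, Snord82 and Rpl23 became 0.0370, 0.0124 and 0.00266, and under cyclic loess 0.0320, 0.00901 and 0.00846; the Snord median became 0.0124 and 0.00901. Leaving out 1 array gave ranges of -0.0474 to 0.0355 for Snora7a, -0.102 to 0.0834 for Snord82, -0.0314 to 0.0139 for Rpl23, -0.0124 to 0.154 for Snord16a, -0.0132 to 0.211 for Snora75, -0.0121 to 0.107 for Snord73b, -0.0546 to 0.0840 for Ncl, -0.0154 to 0.107 for Nop56, -0.140 to 0.288 for Snord118, -0.00275 to 0.0323 for Rps3, -0.0314 to 0.132 for Snord61, -0.00872 to 0.170 for Snora44, -0.0722 to 0.00962 for Snora52 and -0.0980 to 0.0152 for Rplp2. The other single-gene comparisons covered the 82 named genes except Dicer1. Of these comparisons 713 kept direction and side of the threshold, 37 lost the call and 44 gained it. With an array left out, 383 kept both, 71 lost and 10 gained the call. The paired fit with the replicate block changed no call of a named gene beyond those named in the report.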

Other observations

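The imprinted Snord116 cluster, a tandem array of box C/D genes expressed from the paternal chromosome, was outside the report because its probe sets list 3 symbols each, all of snoRNA type in RefSeq. They were looked at after their values were seen. All 24 of these probe sets were called lower in tamoxifen-treated cells in a fit over the 23410 probe sets with a listed gene, which called 1657. Of the 24, 18 held the same values at 2 decimals, and only 7 distinct patterns occurred, so they are not 24 independent measurements. The shared pattern measured 9.13, 8.88 and 8.82 in tamoxifen-treated cells, against 9.34, 9.58 and 9.66 in untreated cells. The treated arrays all lay below the untreated ones, at 66.9% of the untreated level, a change of -0.58 ± 0.11 on the log2 scale.

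Over the 24 probe sets the changes ran from -0.59 to -0.50, with adjusted p-values from 0.0176 to 0.0314 (limma) and from 0.0140 to 0.0255 with the replicate block. Over all 35556 probe sets the adjusted p-values were 0.0687 to 0.0976, so none was called. All 24 stayed called without untreated replicate 1 or without tamoxifen replicate 1, and 0 were called without any of the other 4 arrays. The 17 other probe sets with a snoRNA symbol among several gave 0 calls, with 1 at an unadjusted p under 0.05 and changes from -0.42 to 0.32. A single gene cannot be named for any of these probe sets, and which copies the probes read was not tested.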
